A study of Triticum aestivum with 12 samples.

Results

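This account is about how the difference between a mutant and a wild type changed as wheat grain aged. All 12 of the 12 RNA sequencing libraries of the series entered it, chosen by their labels. The measure was the interaction of cultivar and age: the difference of mutant and wild type 30 days after anthesis (flower opening) minus their difference at 20 days. The same number is the change over time in the mutant minus the change over time in wild type. A positive interaction means that a gene stood relatively higher in the mutant at 30 days than at 20 days, whichever way it moved in each line. Of 25269 genes in the table, 5723 had enough expression to be tested.

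The samples were whole immature grains of bread wheat, Triticum aestivum, of the mutant HPm512 and of the wild-type cultivar Zhoumai22. The 4 groups, with 3 libraries each, were the mutant at 30 days, wild type at 30 days, the mutant at 20 days and wild type at 20 days. The labels do not say whether the mutant was made in Zhoumai22. They credit the mutant with high antioxidant activity, and the series asks how the transcripts of these grains differ. The mutated gene is not named in the sources used here. The labels also do not tell whether replicates were separate plants, so the p-values describe the spread among these libraries, which can be technical.

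A wheat grain first makes cells and then fills them. Dividing endosperm cells need histones and replication enzymes. The filling endosperm imports sugar, turns it into starch, and loads storage proteins into the secretory pathway. Late in development the embryo prepares for drying with protective proteins, while the endosperm stops synthesis and dies. Age in days and stage of development cannot be told apart from the labels.

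Libraries held 59.3 M to 73.6 M reads, of which 9244968 to 15187939 fell on the genes of the table. Gene models came from chromosomes 1A, 1B and 1D (5071 tested), and the 652 other tested genes were non-coding RNAs from the whole genome. Across genes the r between replicates was 0.961 to 0.979, and the counts of every pair differed by more than sampling noise. Mutant replicate 3 at 20 days stood nearer to wild type of that age than did replicates 1 and 2. Wild-type replicates 2 and 3 at 20 days and replicate 3 at 30 days were rich in ribosomal RNA, at 1023, 972 and 1257 RPM (reads per M reads of the library), against 377 to 533 in the other 9 libraries. The markers of endosperm (storage proteins) and of embryo (Em proteins) were present in every library, whereas those of green pericarp were near 0 in wild type at 30 days. In whole grain, fewer cells of a type and less RNA per cell cannot be told apart.

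The time course differed between the lines in many of the genes tested, in both directions. By edgeR's quasi-likelihood test with Benjamini-Hochberg adjustment, 1373 of 5723 genes had an interaction at an adjusted p under 0.05, which is 24% of the genes tested. Of these, 751 were positive (13.1%) and 622 were negative (10.9%). A called interaction was at least 2-fold in 735 genes (12.8%), with 499 positive and 236 negative. The median size among called genes was 1.08 on the log2 scale, and the median over all tested genes was -0.02. Without mutant replicate 3 at 20 days 1513 genes were called (809 positive, 704 negative), and without the 3 libraries rich in ribosomal RNA 924 were (517 positive, 407 negative). Among gene models the called share was 26.5% on 1A, 25.8% on 1B and 25.6% on 1D. The cultivar difference had opposite signs at 20 and 30 days in 95.3% of called genes and 63.5% of all tested genes. A turned order of the lines is therefore not particular to the genes named below. Most called genes had no called difference at 20 days: 552 were called higher and 391 lower in the mutant at 30 days only, and 312 at neither age.

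Most positive interactions were of genes that fell with time in wild type. Of the 751 positive genes, 211 fell with time in both lines, 243 fell in wild type with no call in the mutant, and 121 rose in the mutant while they fell in wild type. A further 113 rose in the mutant with no call in wild type, 61 rose in both, and 2 had no call in either. For comparison, 27.9% of all tested genes fell with time in the mutant and 31.9% fell in wild type. These counts share their libraries with the interaction and describe its make-up.

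Negative interactions were spread over several time courses, of which a rise with time in both lines was the most common. Of the 622 genes, 202 rose with time in both lines and 149 rose in wild type with no call in the mutant. Another 121 fell in the mutant with no call in wild type, 108 fell in both, 34 fell in the mutant while they rose in wild type, and 8 had no call in either. Over all tested genes, 29.9% rose with time in the mutant and 31.8% rose in wild type.

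**Figure D1:**
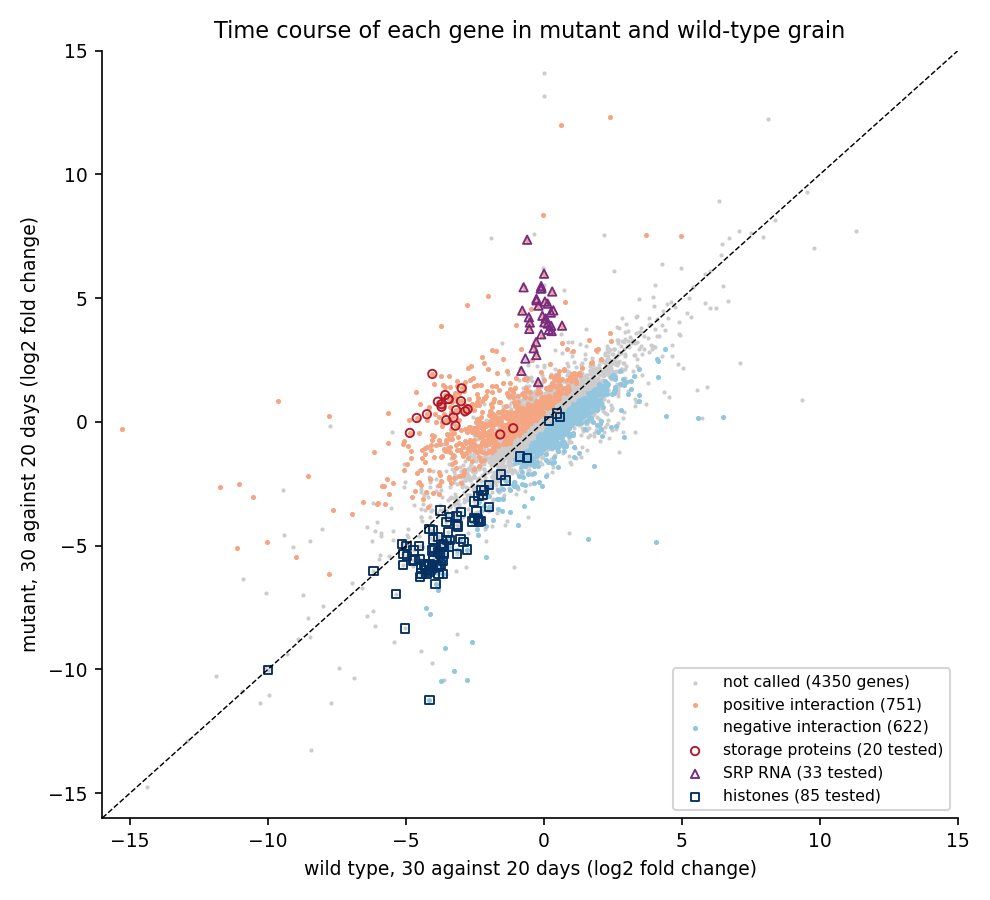
Change over time (30 against 20 days, log2 fold change) of each of the 5723 tested genes, in the mutant on the vertical axis and in wild type on the horizontal axis; each point is a gene, and the dashed line marks equal change. Storage proteins lie above the line, with a median of 0.50 in mutant grain and -3.46 in wild-type grain, SRP RNA lies above it at a median of 4.23 in mutant grain and -0.10 in wild-type grain, and most histones lie below it.

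The balance of positive and negative calls depended on the scaling. The values given here use TMM factors (trimmed means of log ratios, which set the bulk of genes near 0). Library totals alone moved the median interaction of all genes by -0.78 and gave 361 positive and 2994 negative calls. Equal FPKM totals (FPKM are fragments per gene length and library total) moved it by -1.79 and gave 196 positive and 4468 negative calls. The shift was -0.56 for limma on log2(FPKM + 1), with 347 positive and 3141 negative calls, and -0.75 with a pseudocount of 0.1, with 357 and 3018. Median-of-ratios factors gave 695 and 691, quantile normalization 620 and 901, and DESeq2 779 and 802. Directions below are relative to the TMM scaling, and a list whose median turns under another scaling is named as such. A positive value of a single gene that is smaller in size than these shifts can turn too, and is not always named.

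**Figure D2:**
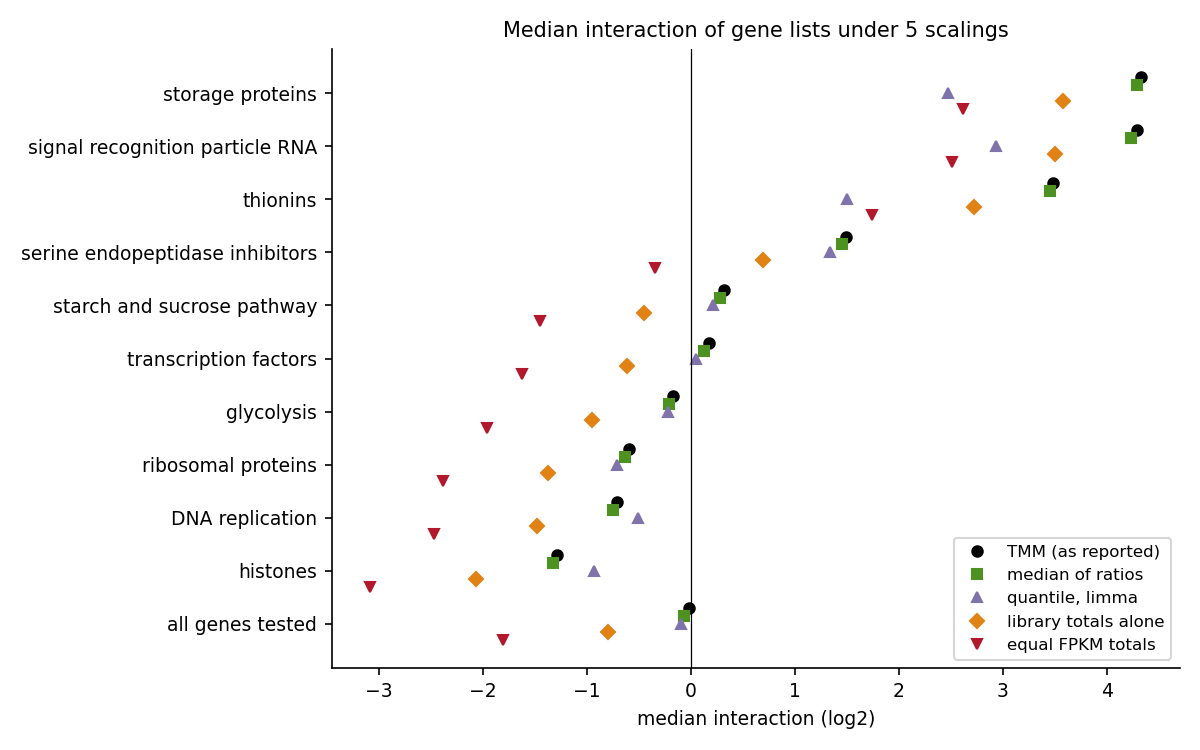
Median interaction (log2) of 10 gene lists and of all tested genes, under 5 scalings shown as separate symbols. Storage proteins, thionins and SRP RNA stayed above 0 and ribosomal proteins, DNA replication and histones stayed below 0 under each scaling drawn, whereas serine endopeptidase inhibitors, the starch and sucrose pathway and transcription factors crossed 0.

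Storage proteins, the reserve of the endosperm, took a larger share of reads in mutant than in wild-type grain at 30 days and a smaller one at 20 days. Genes annotated with nutrient reservoir activity took 2.88%, 3.57% and 3.79% of the reads in the mutant libraries at 30 days, against 0.548%, 0.552% and 0.543% in wild type at that age. At 20 days they took 2.99%, 2.16% and 4.31% in the mutant, against 4.98%, 4.84% and 5.03% in wild type. The groups did not overlap at either age, and the mutant was the higher line at 30 days and the lower line at 20 days. The interaction of the log2 share was 3.34 (2-sided exact permutation p = 0.005, with cultivar labels permuted within each age; this is the smallest p that 400 arrangements allow, and it tests for no difference at either age). The table holds 45 storage protein genes, of which 20 were tested. Of these, 20 had a positive and 0 a negative interaction, against 13.1% and 10.9% over all genes. The median was 4.33, with a range of 0.86 to 5.98. The list's direction held under all scalings tried, with a lowest median of 2.47 under quantile normalization, and all 20 were also called without mutant replicate 3 at 20 days and without the 3 libraries rich in ribosomal RNA.

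Gamma-gliadin 2 (TraesCS1D02G001200, 1D, 321910 to 322893), a gluten monomer and the most abundant of these transcripts, held 9659, 12153 and 12136 FPKM in the mutant at 30 days, against 1549, 1591 and 1548 in wild type. Its 20-day values were 8561, 6096 and 10920 FPKM in the mutant, against 14843, 13527 and 15088 in wild type. No library of one line overlapped those of the other at either age, and the order of the lines turned, as the sign did in 95.3% of called genes. The interaction was 4.38 on the log2 scale (SE 0.37, edgeR adjusted p = 2.36e-06).

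The largest storage protein interaction was that of Gamma-gliadin B (TraesCS1B02G011000, 1B, 5142047 to 5142922), a rare gliadin transcript. It stood at 3.69, 6.33 and 6.73 FPKM in the mutant at 30 days, against 0.329, 0.227 and 0.497 in wild type, and at 2.78, 1.11 and 2.39 FPKM in the mutant at 20 days, against 5.50, 5.19 and 4.26 in wild type. Its change over time was 1.94 in mutant grain and -4.04 in wild-type grain (log2), an interaction of 5.98 (SE 0.56, edgeR adjusted p = 5.70e-06). Globulin 1, a reserve protein outside the gluten fraction, gave 3.84 on 1B (TraesCS1B02G330000) and 3.27 on 1D (TraesCS1D02G317300). Delta gliadin-D1 (TraesCS1D02G001300) gave 3.28, and the Gamma gliadin-A3 genes TraesCS1A02G007400 and TraesCS1A02G007405 gave 3.05 and 3.46. Gliadin genes are near-identical in places, which makes the value of any one copy uncertain. The smallest members were 0.86 (TraesCS1A02G045800) and 1.08 (TraesCS1D02G046400), both without a description and both under 20 FPKM in each group mean.

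Interactions of the same sign were found for other endosperm products. The thionins, small antimicrobial proteins of the starchy endosperm, were both positive (median 3.48). Type V Thionin (TraesCS1B02G426000, 1B, 652297679 to 652298808) held 250, 349 and 220 FPKM in the mutant at 30 days, against 61.6, 59.4 and 54.0 in wild type, and 157, 115 and 151 FPKM in the mutant at 20 days, against 273, 165 and 276 in wild type. Both ages separated the lines, in opposite orders, with an interaction of 3.76 (SE 0.34, edgeR adjusted p = 3.78e-06). A Defensin (TraesCS1A02G014000), another small defence protein, gave 4.10. It was chosen after its values were seen.

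Inhibitors of serine endopeptidases, which protect grain protein from digestion, had 15 positive and 0 negative calls among 26 tested genes (101 in the table). These shares were 57.7% and 0%, against 13.1% and 10.9% over all genes, and the median was 1.49. Equal FPKM totals turned this median to -0.34. The Globulin 1 genes are 2 of the 15, because the table gives them this function too. The count was 12 positive without the 3 libraries rich in ribosomal RNA. TraesCS1B02G034300 (1B, 16501939 to 16502688) held 12.6, 16.8 and 9.13 FPKM in the mutant at 30 days, against 0.749, 2.57 and 2.14 in wild type, and 11.1, 7.51 and 10.7 FPKM in the mutant at 20 days, against 17.8, 17.4 and 26.1 in wild type. The mutant ranges overlapped between the ages, each 30-day wild-type library was below each 20-day one, and the interaction was 4.63 (SE 0.50, edgeR adjusted p = 2.07e-05). TraesCS1B02G043800 gave 4.57, with group means of 55.0 FPKM in mutant grain and 8.56 in wild-type grain at 30 days, and 15.2 in mutant grain and 32.7 in wild-type grain at 20 days. The aluminium-induced Wali genes of the list gave smaller values, of 0.95 for Wali3 protein (TraesCS1D02G265900), 1.71 for Wali6 protein (TraesCS1B02G276900) and 1.92 for Wali5 protein (TraesCS1D02G265800). The 5 inhibitors of cysteine proteinases had 0 calls by edgeR's quasi-likelihood test, with 1 at an unadjusted p under 0.05, and 0 by DESeq2. Of these 5, 3 were called by limma with either pseudocount and with library totals alone, and 5 with equal FPKM totals. Without mutant replicate 2 at 20 days 2 were called, and 1 with the replicate block. Their median was 0.14, with a range of -0.13 to 0.54, and it was below 0 with library totals alone (-0.65), equal FPKM totals (-1.66) and limma (-0.60 and -0.63).

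**Figure D3:**
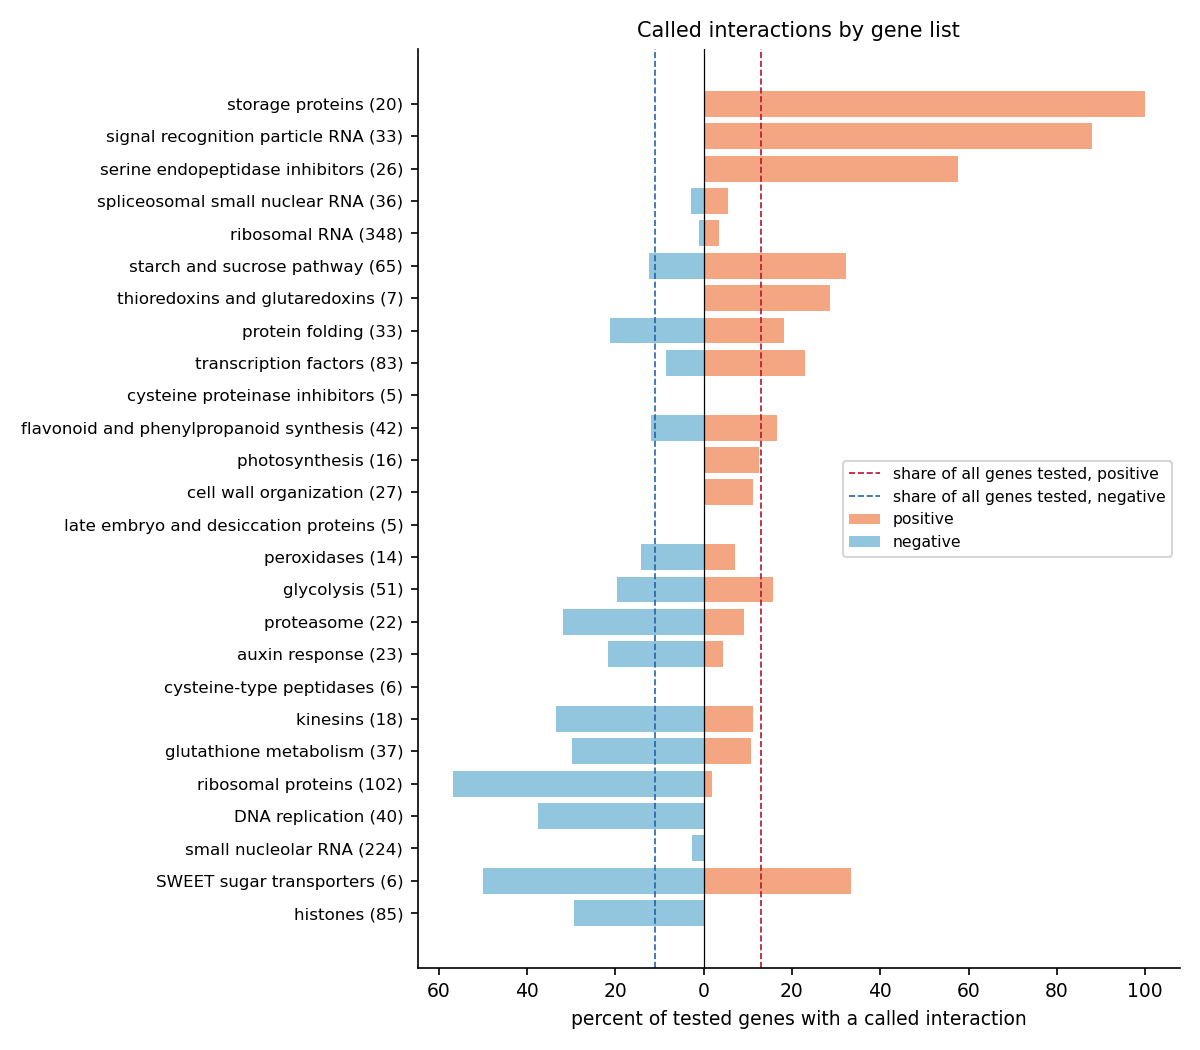
Share of the tested genes of each list (number tested in brackets) with a called interaction, in percent, positive to the right of 0 and negative to the left; lists are ordered by their median interaction and matched by words of the annotation, so a gene can be in several. The dashed lines mark the shares over all genes tested, 13.1% positive and 10.9% negative.

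Among transcription factors the largest interaction of a gene with at least 5 FPKM in a group belonged to a known activator of storage protein genes. Storage protein activator (TraesCS1D02G332200, 1D, 422868961 to 422873459), a bZIP factor known in wheat to switch on glutenin genes, held 1.58, 1.52 and 1.37 FPKM in the mutant at 30 days, against 0.422, 0.231 and 0.301 in wild type. At 20 days it held 3.24, 5.61 and 8.70 FPKM in the mutant and 4.45, 6.66 and 6.53 in wild type. The lines overlapped at 20 days and were apart at 30 days, and the 30-day level was below the 20-day level in both, and the interaction was 2.98 (SE 0.48, edgeR adjusted p = 0.000636). The Transcriptional activator TraesCS1B02G343500 on 1B gave 2.51.

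Over all transcription factors, 19 of 83 tested genes were positive (22.9%, against 13.1% over all genes) and 7 negative (8.4%, against 10.9%). Their median of 0.17 was below 0 with library totals alone (-0.61), equal FPKM totals (-1.63) and limma (-0.40 and -0.59). The counts without the 3 libraries rich in ribosomal RNA were 16 positive and 2 negative. A BZIP transcription factor (TraesCS1A02G072600) gave 1.81, with a change over time of -0.43 in mutant grain and -2.24 in wild-type grain. The CCAAT-binding factors TraesCS1A02G288500 and TraesCS1B02G297900, of the family that binds the CCAAT element of promoters, gave 1.74 and 1.79. The CCAAT-binding gene on 1B stood at 48.3 ± 5.59 FPKM in mutant grain and 27.1 ± 0.378 in wild-type grain at 30 days, and at 33.1 ± 0.612 in mutant grain and 37.4 ± 2.92 in wild-type grain at 20 days (SD, n = 3 each). Heat shock transcription factor A6e (TraesCS1A02G375600), a regulator of the heat response, gave 1.53, a value that turned to -0.24 with equal FPKM totals. On the negative side, MYBS3 (TraesCS1B02G232800), a repressor of sugar-starvation genes in rice, gave -0.49 and a MIKC-type MADS-box factor (TraesCS1A02G264300) gave -0.90.

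Sugar transporters had interactions of both signs. SWEET proteins let sucrose and hexoses pass membranes, and 2 of 6 tested SWEET genes were positive and 3 negative (11 in the table). These shares were 33.3% and 50%, against 13.1% and 10.9% over all genes. TraesCS1A02G050400 (1A, 32260043 to 32262299) held 7.31, 16.9 and 12.4 FPKM in the mutant at 30 days, against 0.198, 0.298 and 0.153 in wild type. Its 20-day values were 1.08, 0.911 and 1.62 FPKM in the mutant, against 2.25, 2.14 and 3.21 in wild type. It rose with time in the mutant and fell in wild type, with no overlap at either age, and its interaction of 7.60 (SE 0.54, edgeR adjusted p = 1.08e-06) was the largest of any named coding gene. The 1D gene TraesCS1D02G052700 gave 5.54.

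The SWEET genes TraesCS1B02G276000, TraesCS1A02G265200 and TraesCS1D02G265400 gave -2.58, -2.02 and -1.55. The first of these (1B, 483587180 to 483590135) held 1.97, 2.68 and 1.80 FPKM in the mutant at 30 days, against 4.81, 5.18 and 5.44 in wild type, and 1.72, 2.78 and 0.776 FPKM in the mutant at 20 days, against 0.259, 0.308 and 0.615 in wild type. Each wild-type library at 30 days was above those at 20 days, and the mutant range at 20 days enclosed that at 30 days (SE 0.53, edgeR adjusted p = 0.00333). TraesCS1D02G125900 gave -0.33 and was not called. Without the 3 libraries rich in ribosomal RNA 2 were positive and 1 was negative.

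In the starch and sucrose pathway 21 of 65 tested genes were positive (32.3%, against 13.1% over all genes) and 8 negative (12.3%, against 10.9%). Of the positive genes, 2 are Storage protein activator and TraesCS1B02G343500, described above as regulators. The median was 0.32, and it was below 0 with library totals alone (-0.45), equal FPKM totals (-1.45) and limma (-0.27 and -0.40). Glucose-1-phosphate adenylyltransferase, which makes the ADP-glucose that starch is built from, gave 1.53 on 1A (TraesCS1A02G419600) and 1.73 on 1B (TraesCS1B02G449700). The 1A gene held 77.9, 91.4 and 76.8 FPKM in the mutant at 30 days, against 67.2, 64.2 and 61.7 in wild type, and 128, 104 and 147 FPKM in the mutant at 20 days, against 172, 173 and 159 in wild type. Mutant values were above all wild-type values at 30 days and below them at 20 days (SE 0.22, edgeR adjusted p = 0.000323).

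Starch synthases, which lengthen the glucan chains, split. TraesCS1B02G119300, TraesCS1A02G091500 and TraesCS1D02G100100 gave 4.31, 2.71 and 1.97, while TraesCS1A02G353300 and TraesCS1B02G368500 gave -1.77 and -1.14. The 1A pair shows the split: TraesCS1A02G091500 averaged 4.46 FPKM in mutant grain and 1.47 in wild-type grain at 30 days, and 10.3 in mutant grain and 13.1 in wild-type grain at 20 days. TraesCS1A02G353300 averaged 1.31 FPKM in mutant grain and 4.48 in wild-type grain at 30 days, and 3.82 in mutant grain and 2.20 in wild-type grain at 20 days.

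Enzymes of cell wall glucan were among the larger members of the list. A beta glucanase on 1A (TraesCS1A02G234600, 410152902 to 410157058) held 4.97, 4.44 and 5.86 FPKM in the mutant at 30 days, against 0.973, 1.14 and 1.24 in wild type, and 3.39, 6.98 and 5.94 FPKM in the mutant at 20 days, against 7.52, 8.25 and 5.26 in wild type. The lines overlapped at 20 days and not at 30 days, and the interaction was 3.33 (SE 0.34, edgeR adjusted p = 1.26e-05). Its copies on 1B (TraesCS1B02G249000) and 1D (TraesCS1D02G237500) gave 3.06 and 4.95. Enzymes that make trehalose phosphate, a signal of sugar status in plants, gave 2.46 (TraesCS1A02G338200) and 2.35 (TraesCS1B02G350600).

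In glycolysis 8 of 51 tested genes were positive (15.7%, against 13.1% over all genes) and 10 negative (19.6%, against 10.9%), with a median of -0.17. Without the 3 libraries rich in ribosomal RNA 4 were positive and 7 negative. Pyruvate kinase, the last step of glycolysis, had 3 copies with negative calls: -1.96 on 1D (TraesCS1D02G215900), -1.41 on 1B (TraesCS1B02G226500) and -0.95 on 1A (TraesCS1A02G213000). The 1D copy (301629146 to 301634246) held 1.24, 1.31 and 1.30 FPKM in the mutant at 30 days, against 4.07, 3.83 and 4.38 in wild type, and 7.15, 7.02 and 3.99 FPKM in the mutant at 20 days, against 2.69, 2.71 and 3.16 in wild type. The mutant stood above wild type at 20 days and below it at 30 days, without overlap (SE 0.24, edgeR adjusted p = 5.55e-05). Dihydrolipoyl dehydrogenase, a subunit of the complex that takes pyruvate into the citrate cycle, also gave 3 negative values, of -1.33 on 1B (TraesCS1B02G124900), -0.92 on 1D (TraesCS1D02G107400) and -0.89 on 1A (TraesCS1A02G099500).

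**Figure D4:**
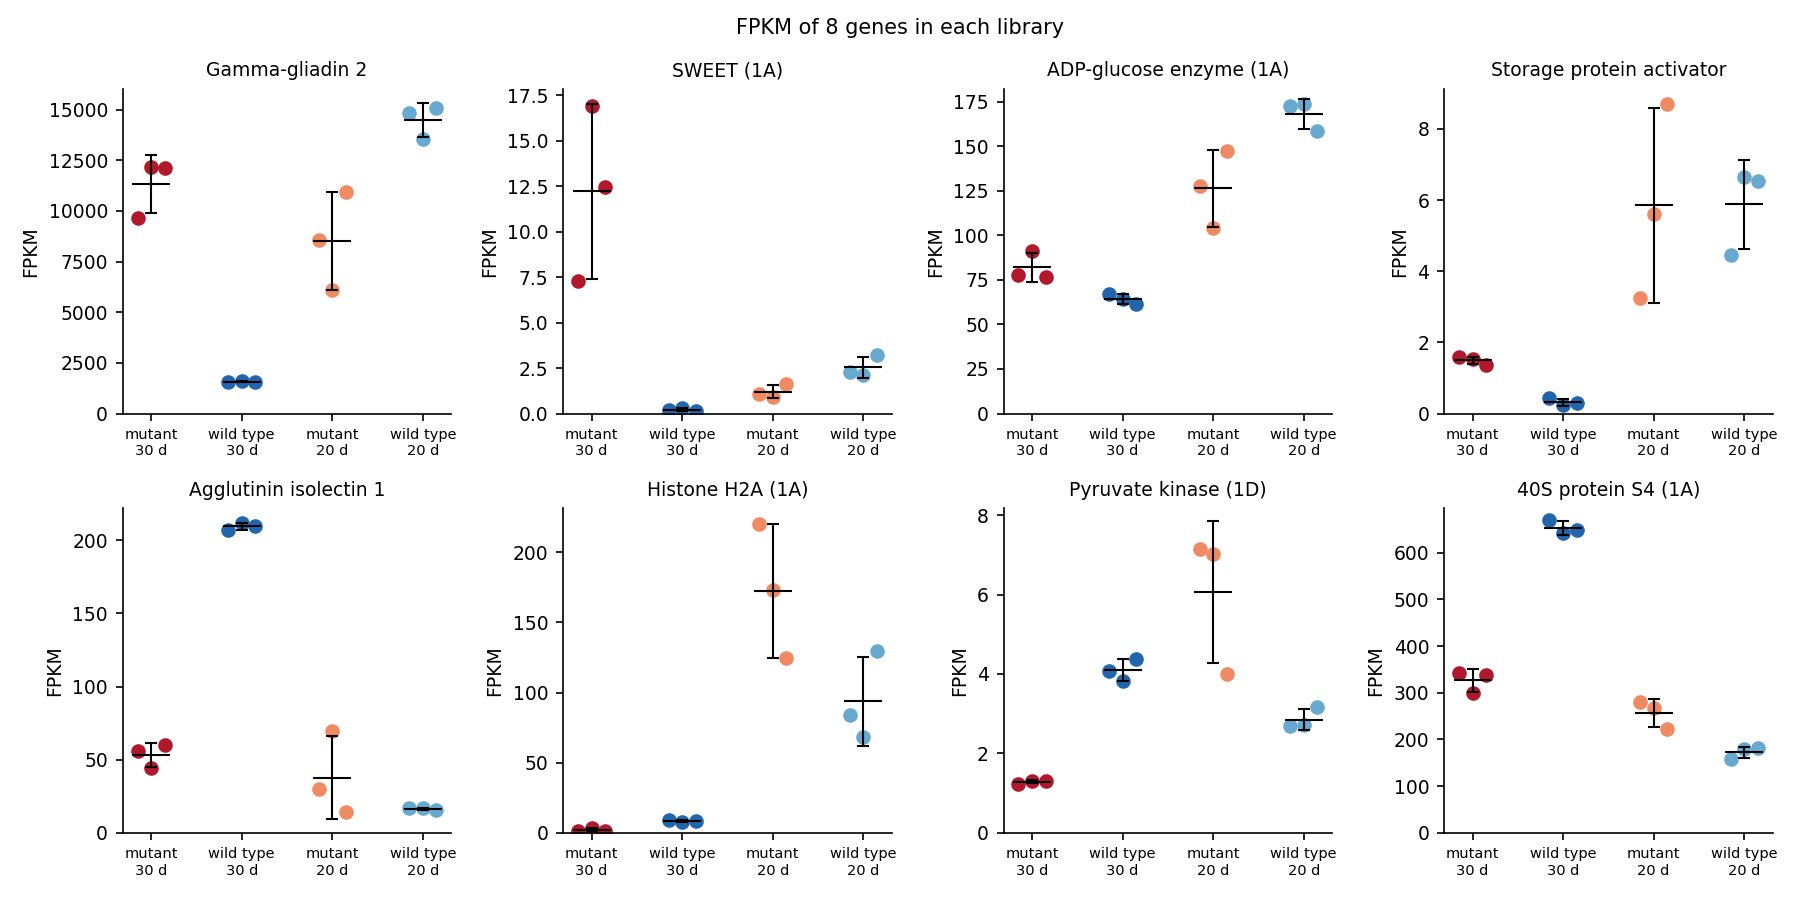
FPKM of 8 genes in each library (points), with the mean and SD of 3 libraries (bar and whiskers), for the mutant and wild type at 30 days and then at 20 days; each axis starts at 0. In the upper row the mutant is the higher line at 30 days, and in the lower row wild type is, with Gamma-gliadin 2 at 11316 against 1563 FPKM and Agglutinin isolectin 1 at 53.3 against 210 FPKM.

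Genes of dividing cells had negative interactions wherever they were called, kinesins excepted. Histones, which package new DNA, had 0 positive and 25 negative calls among 85 tested genes (92 in the table). These shares were 0% and 29.4%, against 13.1% and 10.9% over all genes. The median interaction was -1.28, and it was the same with the 2 genes at 0 in a whole group set to 3 counts. The median change over time was -5.06 in mutant grain and -3.75 in wild-type grain. The summed FPKM of the list was 178 to 254 in mutant grain and 353 to 404 in wild-type grain at 30 days, and 2014 to 2993 in mutant grain and 1113 to 1826 in wild-type grain at 20 days. The list's median was below 0 under all scalings tried, and without the 3 libraries rich in ribosomal RNA 12 were negative.

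Histone H2A (TraesCS1A02G038200, 1A, 21022731 to 21023627) held 1.38, 3.61 and 1.48 FPKM in the mutant at 30 days, against 9.02, 7.83 and 8.42 in wild type. At 20 days it held 220, 173 and 124 FPKM in the mutant, against 84.0, 68.3 and 129 in wild type. The lines were apart at 30 days and overlapped at 20 days, with an interaction of -2.05 (SE 0.45, edgeR adjusted p = 0.00547); this gene was chosen after its values were seen. After Histone H4 variant TH011, described below, the called members with the largest fitted values were Histone H3.2 (TraesCS1D02G274300, -2.62), Histone H4 (TraesCS1A02G291500, -2.47), Histone H2B (TraesCS1A02G229100, -2.38) and Histone H2A on 1B (TraesCS1B02G049100, -2.30). The calls of TraesCS1A02G291500 and TraesCS1B02G049100 ended without mutant replicate 1 at 20 days, without 1 wild-type library at 30 days (replicate 2 and replicate 3 in that order), and without the 3 libraries rich in ribosomal RNA. Histone H4 variant TH011 (TraesCS1D02G081600) had 0 counts in mutant grain and 41 in wild-type grain at 30 days, and 1058 in mutant grain and 569 in wild-type grain at 20 days, over 3 libraries each. With 3 counts over the group in place of 0 its interaction was at most -3.78, and its fitted value of -7.10 is no bound. Histone genes also have near-identical copies, with the same uncertainty.

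DNA replication genes had 0 positive and 15 negative calls among 40 tested, or 0% and 37.5%, against 13.1% and 10.9% over all genes. Their median was -0.71, below 0 under all scalings tried. A DNA helicase that the table places in the MCM complex, the ring that opens DNA at replication forks (TraesCS1A02G299500, 1A, 494442747 to 494448514), held 1.42, 1.39 and 1.81 FPKM in the mutant at 30 days, against 3.58, 3.46 and 3.58 in wild type. At 20 days it held 13.4, 9.63 and 8.73 FPKM in the mutant, against 4.24, 4.63 and 6.23 in wild type. The order of the lines turned with age and no libraries overlapped (-1.49, SE 0.24, edgeR adjusted p = 0.000723). Other MCM helicases gave -1.47 (TraesCS1D02G298400), -1.42 (TraesCS1B02G309300) and -0.96 (TraesCS1B02G274600). The catalytic subunits of DNA polymerase epsilon, which copies the leading strand, gave -1.74 (TraesCS1B02G156600) and -1.49 (TraesCS1A02G130700), and Flap endonuclease 1 (TraesCS1B02G377800), which trims lagging-strand fragments, gave -0.87.

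Kinesins, the motors that move along microtubules, had 2 positive and 6 negative calls among 18. These shares were 11.1% and 33.3%, against 13.1% and 10.9% over all genes. TraesCS1D02G176100 gave -0.82, with 2.43 ± 0.263 FPKM in mutant grain and 4.83 ± 0.471 in wild-type grain at 30 days, and 5.96 ± 0.494 in mutant grain and 3.90 ± 0.269 in wild-type grain at 20 days (SD, n = 3 each). Topoisomerases and chromosome proteins, chosen after their values were seen, gave the same sign on each chromosome. DNA topoisomerase 2, which untangles DNA, gave -1.26 on 1A (TraesCS1A02G260500), -1.38 on 1B (TraesCS1B02G271100) and -2.04 on 1D (TraesCS1D02G260500). Structural maintenance of chromosomes proteins gave -2.19 (TraesCS1A02G314100), -1.34 (TraesCS1B02G326400) and -1.16 (TraesCS1D02G314600).

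Ribosomal protein genes were mostly negative. Of 102 tested genes (153 in the table) 58 were negative (56.9%, against 10.9% over all genes) and 2 positive (2.0%, against 13.1%). The median change over time was 0.61 in mutant grain and 1.24 in wild-type grain. The median interaction was -0.59 and was below 0 under all scalings tried, and without the 3 libraries rich in ribosomal RNA 38 were negative and 2 positive. The 40S ribosomal protein S4 (TraesCS1A02G092900, 1A, 85344049 to 85346466) held 343, 299 and 338 FPKM in the mutant at 30 days, against 670, 642 and 648 in wild type, and 280, 267 and 223 FPKM in the mutant at 20 days, against 159, 178 and 181 in wild type. The mutant was above wild type in each 20-day library and below it in each 30-day library (-0.79, SE 0.15, edgeR adjusted p = 0.00187). The 2 positive genes, TraesCS1A02G001800 (1.67) and TraesCS1D02G246000 (1.70), have no description, and the value of TraesCS1A02G001800 turned to -0.08 with equal FPKM totals.

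Genes of protein breakdown and folding had calls of both signs. Of 22 proteasome genes 7 were negative (31.8%, against 10.9% over all genes) and 2 positive (9.1%, against 13.1%), with a median of -0.28. Without the 3 libraries rich in ribosomal RNA 2 were negative and 2 positive. Proteasome subunit alpha type (TraesCS1D02G307800), part of the proteolytic core, gave -1.16. The proteasome member TraesCS1B02G415200 gave 1.37, a value that turned to -0.44 with equal FPKM totals. Of 33 protein folding genes 6 were positive (18.2%, against 13.1% over all genes) and 7 negative (21.2%, against 10.9%), and 1 of the positive genes is the heat shock factor TraesCS1A02G375600. Their median was 0.18, and it was below 0 with library totals alone (-0.59), equal FPKM totals (-1.58) and limma (-0.54 and -0.59); without the 3 libraries rich in ribosomal RNA 6 were positive and 1 was negative. The 6 cysteine-type peptidases had 0 calls by edgeR, with 1 at an unadjusted p under 0.05, and 0 by DESeq2; 4 were called by limma with either pseudocount and with library totals alone, 1 with quantile normalization and 6 with equal FPKM totals. Their median was -0.45.

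Redox genes bear on the label of the mutant, and their lists differed in the sign of the median. In glutathione metabolism 4 of 37 tested genes were positive (10.8%, against 13.1% over all genes) and 11 negative (29.7%, against 10.9%). Their median interaction was -0.57, or -0.42 with the 1 gene at 0 in a group set to 3 counts. The median was below 0 under all scalings tried, and without the 3 libraries rich in ribosomal RNA 2 were positive and 8 negative. The glutamate-cysteine ligases, the first step of glutathione synthesis, were negative on 1B (TraesCS1B02G090500, -0.68), 1A (TraesCS1A02G072000, -0.65) and 1D (TraesCS1D02G074500, -0.57). The 1A copy held 23.5, 20.8 and 22.5 FPKM in the mutant at 30 days, against 44.8, 41.2 and 41.0 in wild type, and 28.0, 27.1 and 20.6 FPKM in the mutant at 20 days, against 17.4, 15.8 and 19.8 in wild type. In FPKM, each mutant library was above all wild-type libraries at 20 days and below them at 30 days (edgeR adjusted p = 0.00704). The TMM factors of mutant and wild-type replicate 3 at 20 days were 1.08 and 0.954, so the 20-day groups overlap after that scaling. Glutathione transferase 2 (TraesCS1D02G190000), which couples glutathione to toxic compounds, gave -1.91.

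The list matched by the word peroxidase had 14 tested genes, but 7 of them are described as Peroxidase, 4 carry NAD(P)H oxidase activity and 3 are the transcription factor MYBS3. Of the 7 described peroxidases 1 was negative and 1 positive, with a median of -0.21, against 10.9% and 13.1% over all genes tested. The other negative call of the list was MYBS3 TraesCS1B02G232800, named above. Without the 3 libraries rich in ribosomal RNA the list had 1 negative and 0 positive calls by edgeR. Peroxidase TraesCS1A02G124200 (1A, 146630196 to 146634893), of the class that oxidises phenolics in the cell wall, held 2.25, 2.59 and 2.53 FPKM in the mutant at 30 days, against 6.95, 6.50 and 6.56 in wild type, and 4.91, 5.13 and 3.96 FPKM in the mutant at 20 days, against 3.53, 4.10 and 4.14 in wild type. The lines overlapped at 20 days and not at 30 days (-0.90, SE 0.18, edgeR adjusted p = 0.00267). Of 7 thioredoxins, which reduce disulfides, 2 were positive by edgeR and by DESeq2, and 0 by edgeR without the 3 libraries rich in ribosomal RNA. The list had a median of 0.27 that was below 0 with library totals alone (-0.50), equal FPKM totals (-1.50) and limma (-0.47 and -0.49). The call of Thioredoxin TraesCS1B02G132600 (0.90) ended without mutant replicate 2 at 30 days, mutant replicate 2 at 20 days, or wild-type replicate 1 or 2 at 20 days, and its value turned to -0.86 with equal FPKM totals.

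Flavonoids are phenolic antioxidants of the grain coat, and in flavonoid and phenylpropanoid synthesis 7 of 42 tested genes were positive and 5 negative. These shares, 16.7% and 11.9%, lay near the 13.1% and 10.9% over all genes tested, and 1 positive and 1 negative gene are the called peroxidases above. Their median was 0.13, and it was below 0 with library totals alone (-0.66), equal FPKM totals (-1.68) and limma (-0.40 and -0.64). With the TMM scaling, enzymes placed on neighbouring branches by their enzyme numbers had interactions of opposite sign. Anthocyanidin synthases gave 1.52 (TraesCS1D02G072700), 1.66 (TraesCS1A02G070200) and 1.71 (TraesCS1B02G088600), whereas the flavonol synthases TraesCS1A02G320000 and TraesCS1A02G221200 gave -2.09 and -1.65. The positive values are smaller in size than the shift of the all-gene median under equal FPKM totals (-1.79), so their sign depends on the scaling. TraesCS1A02G320000 (1A, 510672254 to 510674036) held 0.743, 0.485 and 0.788 FPKM in the mutant at 30 days, against 1.81, 1.92 and 2.35 in wild type, and 17.4, 18.5 and 10.3 FPKM in the mutant at 20 days, against 5.11, 4.86 and 8.71 in wild type. Its 30-day values were below its 20-day values in both lines, and the order of the lines turned (SE 0.36, edgeR adjusted p = 0.000985). Without the 3 libraries rich in ribosomal RNA 4 genes of the list were positive and 3 negative.

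Among embryo markers, a lectin was called and the Em proteins were not. The 5 tested Em proteins, hydrophilic proteins that the embryo stores before drying, had 0 calls by edgeR and by DESeq2, and 0 at an unadjusted p under 0.05. Without wild-type replicate 2 at 20 days 1 was called, and 3 were called with equal FPKM totals. The median was -0.14, with a range of -1.12 to 0.74. Their summed level was 1314 to 2495 FPKM in mutant grain and 2575 to 2746 in wild-type grain at 30 days, and 12.4 to 106 in mutant grain and 34.4 to 59.9 in wild-type grain at 20 days. No Em protein was at 0 in a whole group, and SEs of about 0.7 for the abundant copies TraesCS1A02G224600 (0.71) and TraesCS1B02G237500 (0.70) leave room for differences of either sign. The embryo protein Agglutinin isolectin 1 (TraesCS1A02G326800, chromosome 1A, 516739314 to 516740335) is a chitin binder and had a negative interaction. It held 55.6, 44.4 and 59.7 FPKM in the mutant at 30 days, against 207, 212 and 210 in wild type, and 29.7, 69.6 and 14.01 FPKM in the mutant at 20 days, against 16.7, 16.6 and 15.7 in wild type. The 30-day groups were far apart and the 20-day groups overlapped (-2.35, SE 0.49, edgeR adjusted p = 0.00390), and without the 3 libraries rich in ribosomal RNA the adjusted p was 0.0682.

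Green pericarp markers were low throughout. Of 11 chlorophyll a-b binding proteins, which hold light-harvesting pigment, 3 were tested and 2 were positive (66.7%, against 13.1% over all genes). Their median was 2.75, above 0 under all scalings tried. Their summed level was 0.801 to 1.69 FPKM in mutant grain and 0.0480 to 0.408 in wild-type grain at 30 days, and 4.02 to 8.11 in mutant grain and 8.62 to 11.4 in wild-type grain at 20 days. The 30-day ranges did not overlap. The part of pericarp in the other results was not tested.

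Hormone genes included 1 positive and 5 negative calls among 23 auxin response genes, with a median of -0.37. These shares were 4.3% and 21.7%, against 13.1% and 10.9% over all genes. Without the 3 libraries rich in ribosomal RNA 0 were positive and 4 negative by edgeR. MYBS3 TraesCS1B02G232800 is 1 of the 5. The Auxin response factors TraesCS1A02G396400 and TraesCS1B02G424700, which read the hormone's signal in the nucleus, gave -1.72 and -1.11. TraesCS1D02G177000 gave 1.22, or -0.60 with equal FPKM totals, and its call ended without mutant replicate 1 at 30 days or wild-type replicate 2 at 20 days. Tryptophan aminotransferase related 2 (TraesCS1D02G114800), of the family that makes the precursor of auxin, gave 3.26 and averaged 0.481 FPKM in mutant grain and 0.0946 in wild-type grain at 30 days, and 4.25 in mutant grain and 5.01 in wild-type grain at 20 days; it was chosen after its values were seen. Cell wall organization had 3 positive and 0 negative calls among 27 (median -0.01), or 11.1% positive against 13.1% over all genes. Photosynthesis had 2 positive and 0 negative calls among 16 (12.5% positive), and both are the chlorophyll a-b binding genes described above; its median was 0.11, below 0 with library totals alone, equal FPKM totals and limma.

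Among non-coding RNAs the largest share of calls belonged to SRP RNA, the RNA core of the signal recognition particle. The particle binds a new secreted protein, storage proteins included, and docks its ribosome at the endoplasmic reticulum. Of 33 tested SRP RNA genes (91 in the table) 29 were positive (87.9%, against 13.1% over all genes) and 0 negative. The median interaction was 4.29, above 0 under all scalings tried. Some of these genes, such as ENSRNA050015614 and ENSRNA050015616, reached 1 FPKM in the mutant at 30 days alone. The filter for testing (FPKM of at least 1 in at least 3 libraries) admitted them through that group, so their positive sign is no independent result. The RPM below sum all SRP RNA genes of the table, without that filter. SRP RNA took 319, 238 and 202 RPM in the mutant at 30 days, against 37.3, 47.5 and 95.7 in wild type. At 20 days it took 19.4, 21.0 and 17.6 RPM in the mutant, against 27.0, 74.4 and 67.8 in wild type. Each mutant library was above all wild-type libraries at 30 days and below them at 20 days.

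Ribosomal RNA differed between libraries too, so SRP RNA was also set against it. SRP RNA came to 0.537 to 0.599 reads per ribosomal RNA read in mutant grain and 0.0761 to 0.0890 in wild-type grain at 30 days, and to 0.0386 to 0.0490 in mutant grain and 0.0622 to 0.0727 in wild-type grain at 20 days. On this scale as well, no libraries of the lines overlapped, and the wild-type values lay close together at each age. Without the 3 libraries rich in ribosomal RNA 22 of the 33 genes were positive, with a median of 3.40.

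**Figure D5:**
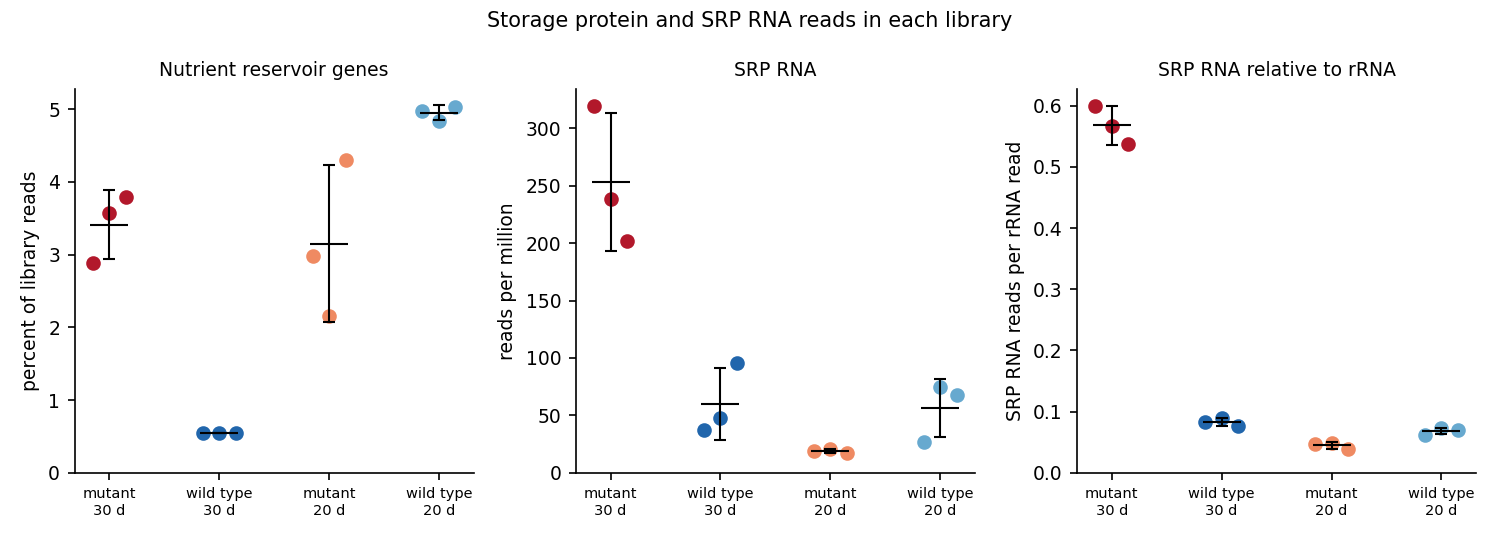
Share of library reads from nutrient reservoir genes (percent), SRP RNA (RPM) and SRP RNA reads per ribosomal RNA read, in each library (points) with the mean and SD of 3 libraries (bar and whiskers). In each panel the mutant is the higher line at 30 days and the lower line at 20 days.

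The SRP RNA gene ENSRNA050021664 (3D, 478130084 to 478130386) held 82.9, 61.1 and 56.3 FPKM in the mutant at 30 days, against 9.69, 10.02 and 11.7 in wild type, and 3.07, 2.16 and 2.18 FPKM in the mutant at 20 days, against 5.34, 7.33 and 8.85 in wild type. It rose with time by 5.27 in the mutant and changed by 0.30 in wild type (log2), an interaction of 4.97 (SE 0.29, edgeR adjusted p = 3.35e-07). On 7A, ENSRNA050015611 (7942868 to 7943171), ENSRNA050015609 (8082983 to 8083286) and ENSRNA050015610 (8203249 to 8203552), which lie near each other, gave 7.97, 5.98 and 5.58 (the call of ENSRNA050015611 ended without the 3 libraries rich in ribosomal RNA), and ENSRNA050021164 on 7D and ENSRNA050019668 on 7B gave 5.28 and 5.24. The copies of this RNA resemble each other, and reads may be split between them. ENSRNA050015611 passed the filter for testing only with the libraries of the mutant at 30 days, where it is high. The protein subunit that grips the signal peptide is Signal recognition particle 54 kDa protein, chosen after its values were seen. It gave 0.41 on 1A (TraesCS1A02G327200), 0.41 on 1B (TraesCS1B02G340600) and 0.44 on 1D (TraesCS1D02G329300), each called by edgeR. These values are smaller in size than the shift of the all-gene median with library totals alone (-0.78), so their sign depends on the scaling.

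Other non-coding classes had few calls. Of 348 ribosomal RNA genes 12 were positive and 4 negative, of 36 spliceosomal RNA genes 2 and 1, and of 224 small nucleolar RNA genes 0 and 6 (edgeR's quasi-likelihood test). These numbers without the 3 libraries rich in ribosomal RNA were 9 and 5, 0 and 1, and 0 and 2, and by DESeq2 24 and 6, 2 and 1, and 0 and 4. By edgeR with all libraries the shares were 3.4% and 1.1%, 5.6% and 2.8%, and 0% and 2.7%. Over all genes tested they were 13.1% and 10.9%. The medians were 0.96, 1.42 and -0.76, and the first and second of these were below 0 with equal FPKM totals (-0.80 and -0.37). Small nucleolar RNAs, which guide the modification of ribosomal RNA, took 35.4 ± 5.85 RPM in mutant grain and 61.5 ± 1.51 in wild-type grain at 30 days, and 40.7 ± 5.52 in mutant grain and 25.7 ± 0.954 in wild-type grain at 20 days (SD, n = 3 each). The 5.8S ribosomal RNA gene ENSRNA050016023 gave -2.35, with 2.50 ± 0.755 FPKM in mutant grain and 14.6 ± 6.29 in wild-type grain at 30 days, and 4.38 ± 1.25 in mutant grain and 2.87 ± 1.01 in wild-type grain at 20 days (SD, n = 3 each).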

How the data were processed

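RNA sequencing libraries of total RNA were prepared with an Illumina TruSeq kit, per the labels' protocols. The submitters' processing notes name cutadapt 1.9 (adapter trimming) and FastQC (read quality). Not given in the sources used here are the aligner, the counter, the use of strand and the build of the genome. The table deposited by the authors gives raw read counts per gene and library, and FPKM, per the file headers. The deposited FPKM were proportional to the counts within a gene and held 1e-04 where the count was 0. Its 25269 complete lines (1 more was incomplete) are 12416 gene models, on 1A (4344), 1B (4714) and 1D (3358), and 12853 non-coding genes. Names and coordinates were taken from the table, as 0 of its identifiers matched those of the RefSeq annotation given for the species (IWGSC CS RefSeq v2.1).

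The table covers part of each library, so library totals were recovered from counts and FPKM of 43 genes with at least 100 counts, with a spread of 0.239%. Genes with FPKM of at least 1 in at least 3 libraries were tested with edgeR 4.0.16 (R 4.3.3) on counts, using TMM factors on these totals, group means and 12 libraries in 1 fit (8 residual degrees of freedom, biological coefficient of variation 21.2%). TMM factors averaged 0.806 in mutant grain and 1.12 in wild-type grain at 30 days, and 1.17 in mutant grain and 0.947 in wild-type grain at 20 days. A log2 interaction uses these factors, and FPKM values do not. SEs are the absolute log2 interaction divided by the square root of the F statistic, and p-values cover the spread of these libraries only. Alternatives used limma 3.58.1, DESeq2 1.42.0, other scalings and filters, a replicate block, and fits that leave out a library.

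The comparison, its lists and the genes named were chosen with earlier results of these data known. The 29 lists match words in the table's descriptions, gene ontology terms and KEGG entries. Named genes were the 8 largest called interactions of each sign with a description and a group mean of at least 5 FPKM, and the largest called member of each list with that mean, 31 in all. Other genes of a list were chosen after their values were seen. In simulated data for the interaction over 5723 genes, 46% of 100 genes with a 2-fold change were called. The share was 81% for 100 genes with a 4-fold change, and 6 unchanged genes were called. Changes were set in the mutant at 30 days alone, as many up as down, so the simulation does not measure errors of scaling.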

Additional observations from a re-analysis of the deposited data

Results flagged for a closer look

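The interaction is itself a test of whether 2 age groups differ in their cultivar contrast, so each called gene named above met that criterion, with an adjusted p under 0.05 by edgeR's quasi-likelihood test. The share of reads from storage protein genes, with a log2 interaction of 3.34, was taken up because every mutant library was above every wild-type library at 30 days and below every one at 20 days. For this share the difference between the ages itself was not tested, since the exact permutation test above is of no cultivar difference at either age. Values are log2 interactions. Groups of 3 libraries were not searched for single outlying samples.

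The positive coding genes were the SWEET transporter TraesCS1A02G050400 (7.60), Gamma-gliadin B (TraesCS1B02G011000, 5.98), the inhibitor TraesCS1B02G034300 (4.63), Type V Thionin (TraesCS1B02G426000, 3.76), the beta glucanase TraesCS1A02G234600 (3.33) and Storage protein activator (TraesCS1D02G332200, 2.98). Smaller values were those of TraesCS1A02G001800 (1.67), the heat shock factor TraesCS1A02G375600 (1.53), the proteasome gene TraesCS1B02G415200 (1.37), the auxin gene TraesCS1D02G177000 (1.22) and Thioredoxin TraesCS1B02G132600 (0.90). The positive non-coding genes were the SRP RNA genes ENSRNA050015611 (7.97), ENSRNA050015609 (5.98), ENSRNA050015610 (5.58), ENSRNA050021164 (5.28), ENSRNA050019668 (5.24) and ENSRNA050021664 (4.97).

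The negative genes included 5 histones, namely TraesCS1D02G081600 (-7.10, with 0 counts in the mutant at 30 days), TraesCS1D02G274300 (-2.62), TraesCS1A02G291500 (-2.47), TraesCS1A02G229100 (-2.38) and TraesCS1B02G049100 (-2.30). The others were the SWEET gene TraesCS1B02G276000 (-2.58), Agglutinin isolectin 1 (TraesCS1A02G326800, -2.35), the ribosomal RNA gene ENSRNA050016023 (-2.35), the flavonol synthase TraesCS1A02G320000 (-2.09), pyruvate kinase TraesCS1D02G215900 (-1.96), Glutathione transferase 2 (TraesCS1D02G190000, -1.91), the helicase TraesCS1A02G299500 (-1.49), the peroxidase TraesCS1A02G124200 (-0.90) and the kinesin TraesCS1D02G176100 (-0.82).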

How the results depend on the processing

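Counts of calls stayed within 1.5 times of 1373 (751 positive, 622 negative) under other size factors, filters, DESeq2 and quantile normalization. They left that range with library totals alone (3355, with 361 and 2994), equal FPKM totals (4664, with 196 and 4468), limma with a pseudocount of 1 (3488, with 347 and 3141) or of 0.1 (3375, with 357 and 3018). Without the 3 libraries rich in ribosomal RNA, a choice made after seeing the data, 924 were called, 517 positive and 407 negative, and 841 of these were among the 1373, with the same sign. Leaving out 1 library at a time gave 1102 to 1513 calls, 628 to 809 positive and 460 to 704 negative. With the replicate block 1294 genes were called (734 and 560), of which 1244 were shared. Same-numbered libraries did not pair: the correlation of their deviations was -0.09 to 0.24 in 18 pairs, over 0.1 in 2, and 4 of 12 libraries correlated best with their own number.

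The storage share interaction was 2.50 to 4.12 under other denominators and gene sets and 3.09 to 3.59 with a library left out; with the replicate block it was 3.34, with an exact p of 0.25, the smallest that 3 pairs allow.

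Of 31 named genes 22 were called with the same sign under every alternative run. Equal FPKM totals reversed TraesCS1A02G001800 (-0.078), TraesCS1A02G375600 (-0.24), TraesCS1B02G415200 (-0.44), TraesCS1B02G132600 (-0.86) and TraesCS1D02G177000 (-0.60). Library totals alone and limma ended the calls of TraesCS1B02G132600 and TraesCS1D02G177000, and limma with 0.1 also that of TraesCS1B02G415200. Single libraries ended 10 calls in 4 genes. Those were TraesCS1B02G132600 (without mutant replicate 2 at 30 days, wild-type replicates 1 or 2 at 20 days, or mutant replicate 2 at 20 days), TraesCS1D02G177000 (mutant replicate 1 at 30 days, wild-type replicate 2 at 20 days), TraesCS1A02G291500 (wild-type replicate 2 at 30 days, mutant replicate 1 at 20 days) and TraesCS1B02G049100 (wild-type replicate 3 at 30 days, mutant replicate 1 at 20 days). Without the libraries rich in ribosomal RNA 6 calls ended, in these 4 genes, ENSRNA050015611 and TraesCS1A02G326800. The cause was not tested. A missing call does not show equal time courses.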

Other observations

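Serine carboxypeptidases, enzymes that trim proteins from their C-terminal end, had 5 positive and 0 negative calls among 8 tested genes by edgeR. Over all genes tested 13.1% were positive and 10.9% negative. The median interaction of the carboxypeptidases was 1.10, or -0.69 under equal FPKM totals. Carboxypeptidase TraesCS1D02G087600 gave 3.18 (SE 0.23, edgeR adjusted p = 1.08e-06) and averaged 7.33 FPKM in mutant grain and 1.79 in wild-type grain at 30 days, and 20.0 in mutant grain and 25.9 in wild-type grain at 20 days. Its relatives TraesCS1B02G104500 and TraesCS1A02G086100 gave 4.27 and 2.95. Proline dehydrogenase, the first step of proline breakdown, gave 2.28 on 1A (TraesCS1A02G209100), 1.20 on 1B (TraesCS1B02G223300) and 1.17 on 1D (TraesCS1D02G212400). The 1B and 1D values are smaller in size than the shift of the all-gene median under equal FPKM totals (-1.79), so their sign depends on the scaling. These terms and genes were chosen after their values were seen, among 310 terms with at least 8 tested genes.

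Genes of nucleotide and DNA upkeep had mostly negative calls. Under DNA repair 21 of 40 tested genes were negative and 1 positive (median -0.63), against 10.9% and 13.1% over all genes tested. Some of the DNA repair genes are also replication genes described above. The CTP synthases TraesCS1A02G427100 and TraesCS1B02G462000, which make a building block of RNA and DNA, gave -1.49 and -1.27, while the copy TraesCS1A02G411600 gave 0.80. TraesCS1A02G427100 averaged 14.6 FPKM in mutant grain and 39.0 in wild-type grain at 30 days, and 6.67 in mutant grain and 3.71 in wild-type grain at 20 days. Under endocytosis, the uptake of membrane and cargo, 27 of 84 tested genes were positive and 2 negative, against 13.1% and 10.9% over all genes tested. The median was 0.27, and it was below 0 with library totals alone (-0.51), equal FPKM totals (-1.52) and limma (-0.41 and -0.51).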
